A study of Homo sapiens with 8 samples.

Results

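The genes described here are the cytochrome P450 genes CYP3A4, CYP3A5, CYP3A7, CYP2E1, CYP1A1 and CYP2B6, the UDP-glucuronosyltransferase genes UGT1A9 and UGT2B7, and NR1I2. They were chosen by symbol, and each symbol was matched to 1 Ensembl identifier, so that 9 of the 63241 genes listed were followed. Expression was measured by mRNA sequencing in 8 libraries, 2 each of WT and SR cells of the lines HepG2 and Huh7. Both are long-established human lines from liver cancers. WT cells are the parental lines, labelled as controls, and SR cells are the sorafenib-resistant derivatives, labelled as sorafenib-treated and obtained by exposing each line to rising concentrations of the drug. The labels name no engineered genetic change in any group and do not say whether the 2 libraries of a group came from separate cultures, so the p-values given below measure only the spread between these libraries, which may be technical. Each cell line is represented by a single resistant derivative, and every library carries the same batch label.

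Cytochrome P450 enzymes of families 1 to 3 oxidize foreign compounds in the endoplasmic reticulum of hepatocytes, using electrons passed on by POR, the P450 reductase. UDP-glucuronosyltransferases then couple glucuronic acid to drugs or their oxidized products, which makes them soluble enough to be excreted. Sorafenib, a multikinase inhibitor, is oxidized mainly by CYP3A4 and glucuronidated mainly by UGT1A9, and NR1I2 encodes the pregnane X receptor, a nuclear receptor that senses drugs and, with RXRA as its partner, activates CYP3A4 and CYP2B6. The comparisons address whether transcripts of these enzymes and of their receptor differed between resistant and parental cells.

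Pregnane X receptor is known to bind an everted repeat of 2 short arms 6 bases apart (ER6) close to the start of CYP3A4, and the matching stretches of the 3 CYP3A members are shown because they carry the link between the receptor and its target. Sequences are from the RefSeq promoter table (GRCh38.p14), on the minus strand and read 5′ to 3′, and capitals mark the ER6 site or its aligned counterpart. The stretches lie at chr7:99784315-99784374 for CYP3A4, chr7:99680071-99680130 for CYP3A5 and chr7:99735326-99735385 for CYP3A7.
CYP3A4: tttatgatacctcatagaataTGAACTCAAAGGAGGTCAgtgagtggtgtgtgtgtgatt
CYP3A5: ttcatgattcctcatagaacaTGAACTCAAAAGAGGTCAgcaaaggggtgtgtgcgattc
CYP3A7: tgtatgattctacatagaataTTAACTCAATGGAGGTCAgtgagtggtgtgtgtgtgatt
The site lay 169 to 152 bases before the RefSeq start of CYP3A4, 113 to 96 bases before that of CYP3A5 and 168 to 151 bases before that of CYP3A7. For CYP3A7 this start is the gene end that GENCODE release 29 gives, whereas for CYP3A4 and CYP3A5 the GENCODE gene, whose position is given below, begins further upstream and the distance from its end is shorter. Counting from 1 at the first capital and taking CYP3A4 as the reference, CYP3A5 differed by G11A, within the spacer. CYP3A7 differed by G2T, within the first arm, and by A10T, within the spacer. Of the 60 bases printed, compared position by position without gaps, 40 in CYP3A5 and 54 in CYP3A7 were identical to CYP3A4. After the site the CYP3A5 stretch runs 1 base out of step with CYP3A4, which lowers its count. TGAACT followed by AGGTCA after 6 further bases was found on either strand in 3 of 35116 promoter windows of 250 bases before the start (0.00854%), those of CYP3A4, CYP3A5 and ITGB1BP2. The arm AGGTCA alone, which the longer motif contains, was in 12.1% of windows, among them those of CYP2E1 and CYP2B6. Such a match describes letters and not receptor binding.

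The 9 UGT1A genes share their last exons, and each has a first exon of its own. The joints of exon 1, in lower case, with exon 2, in capitals, are shown for UGT1A9 and for UGT1A1, which clears bilirubin, because a fragment is specific to UGT1A9 only if it reaches the lower-case part. They are on the plus strand of GRCh38 in GENCODE release 29, with exon 2 starting at chr2:233767034-233767063 and the first exons ending at chr2:233672760-233672789 for UGT1A9 and chr2:233761122-233761151 for UGT1A1.
UGT1A9: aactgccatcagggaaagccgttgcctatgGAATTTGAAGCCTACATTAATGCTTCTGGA
UGT1A1: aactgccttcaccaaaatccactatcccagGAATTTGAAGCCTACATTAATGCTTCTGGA
UGT1A8: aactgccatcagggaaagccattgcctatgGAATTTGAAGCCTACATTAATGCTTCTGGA
UGT1A8 is shown as the gene that shares most with UGT1A9, its first exon ending at chr2:233618533-233618562. All 735 coding bases of exons 2 to 5 were identical among the 9 genes. In CYP1A1, the classical target of the aryl hydrocarbon receptor, the core of that receptor's binding site, GCGTG, stands in capitals in the 30 bases at chr15:74725568-74725597 (GRCh38.p14, minus strand), which are 69 to 40 bases before the RefSeq start. The GENCODE gene given below begins further upstream, and this stretch lies inside one of its annotated exons.
CYP1A1: ccagggaaggagGCGTGgccacacgtacaa
GCGTG was in 32.2% of all promoter windows, so its presence does not set CYP1A1 apart.

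Levels are given as FPKM, fragments per kilobase of transcript and per fixed number of fragments sequenced, which the authors scaled for transcript length and library total, so that levels may be compared between genes. HepG2 and Huh7 libraries were checked against hepatocyte markers, whose summed level over 8 genes lay between 596 and 8021 FPKM. Albumin (ALB) was at 604 to 4713 FPKM in 6 libraries but at 11.98 FPKM in Huh7 WT replicate 1 and 42.3 FPKM in Huh7 SR replicate 1. The markers did not move alike, since FGB, a fibrinogen chain, was highest in these 2 libraries, at 380 and 327 FPKM, and at 0.386 to 128 FPKM in the other 6. Summed markers of endothelium reached at most 4.52 FPKM, of fibroblasts 8.92 FPKM and of leukocytes 29.7 FPKM. Replicate 1 of both Huh7 groups and replicate 2 of HepG2 SR stood apart from the other 5 libraries, which carry labels of both cell lines. Over the genes tested, Pearson's r of log2(FPKM + 1) was 0.914 to 0.977 among the 5, and 0.731 to 0.819 between any of the 3 and the 5. The pair from Huh7 correlated with each other at r = 0.965, and both held MAGEA4, a cancer-testis gene, at 237 and 346 FPKM, listed at 0 in the other 6 libraries. KRT19, a bile duct keratin, was at 0.179 to 2.37 FPKM in the 3 libraries and at 155 to 760 FPKM in the 5, and EPCAM at 7.03 to 11.04 and 77.1 to 157 FPKM, whereas the bile duct markers SOX9 (54.1 FPKM in HepG2 SR replicate 2, against 15.6 to 78.4 in the 5) and KRT7 overlapped. Cell line and library profile therefore do not follow each other, the part of this in any result below was not tested, and results that rest on 1 of these libraries are also given without it. HepG2 WT replicate 2, one of the 5, listed 38276 genes above 0 FPKM, against 27188 to 29071 in the other libraries. The part of this in values near 0 was not tested. In bulk RNA, fewer cells expressing a gene and less RNA of it per cell cannot be told apart.

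UGT2B7 had the highest mean level of the 9 genes, followed by NR1I2, CYP1A1 and CYP3A5, but in the 3 libraries that stand apart CYP1A1 was above UGT2B7 and NR1I2. CYP3A4 and UGT1A9, the genes of the main sorafenib-clearing enzymes, had the lowest maxima, 0.136 and 0.411 FPKM. No member was called in SR against WT in either cell line, whereas 2.14% of the 15173 genes tested were called in HepG2 and 1.87% in Huh7. A call required an unadjusted p under 0.05 in limma and a change of at least 0.5 on the log2(FPKM + 1) scale, and only genes that reached an FPKM of 1 in 2 or more libraries were tested. That filter kept 5 members, CYP3A5, CYP3A7, CYP1A1, UGT2B7 and NR1I2, of which 0 had an unadjusted p under 0.05 in either cell line, and it left out CYP3A4, CYP2E1, CYP2B6 and UGT1A9. Over all genes tested, 0 had a Benjamini-Hochberg adjusted p under 0.05 in limma in either cell line, against 325 in HepG2 and 283 in Huh7 with an unadjusted p under 0.05.

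**Figure D1:**
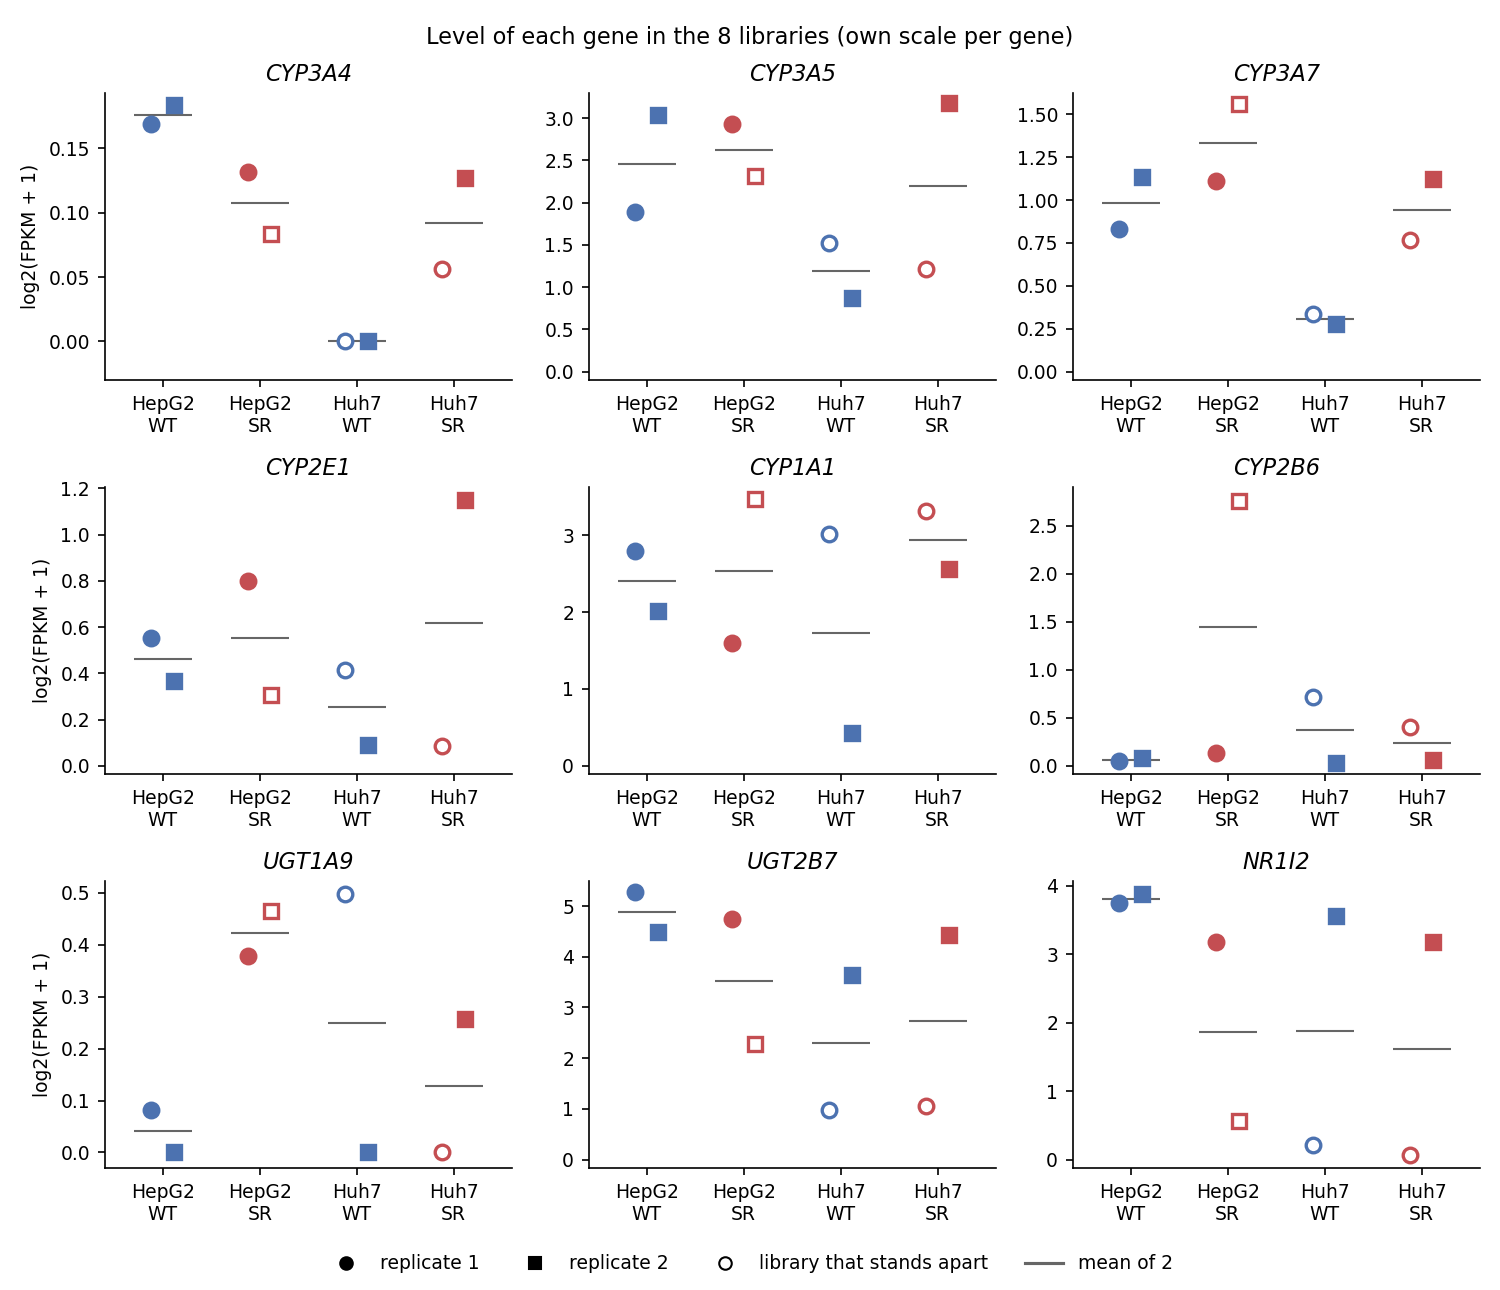
Level of each of the 9 genes, as log2(FPKM + 1) on the vertical axis, in the 4 groups on the horizontal axis; circles are replicate 1, squares replicate 2, open symbols the 3 libraries that stand apart, and grey bars the mean of the 2 libraries. The vertical scale differs between genes, and CYP3A4, at most 0.136 FPKM, is drawn on the narrowest one.

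CYP3A4, the main drug-oxidizing P450 of adult liver, was detected at a low level only. It lies at chr7:99756960-99784265 (GRCh38, minus strand). Its level was 0.124 and 0.136 FPKM in HepG2 WT and 0.0956 and 0.0593 FPKM in HepG2 SR. In Huh7 it was listed at 0 in both WT libraries and was 0.0400 and 0.0917 FPKM in SR. Both HepG2 SR libraries were thus below both WT libraries, and both Huh7 SR libraries above both WT libraries, so the order of SR and WT was opposite in the 2 cell lines. Over all genes tested, a set that does not include CYP3A4, both SR libraries lay below both WT libraries in 20.1% of genes in HepG2, and above them in 9.06% in Huh7. With the filter lowered to an FPKM of 0.1, the difference in CYP3A4 was -0.07 ± 0.08 (SE, log2(FPKM + 1)) in HepG2 (limma, adjusted p = 0.971) and 0.09 ± 0.08 in Huh7 (adjusted p = 1). The difference between these effects, Huh7 minus HepG2, was 0.16 ± 0.12 (limma, adjusted p = 0.99987). All 8 values were under 1 FPKM, and a change this close to 0 is compressed by the added 1. The highest, 0.136 FPKM, came from HepG2 WT replicate 2, the library with the most genes above 0 FPKM.

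CYP3A5, which overlaps CYP3A4 in substrates, was the leading CYP3A transcript in every library. It lies at chr7:99648194-99680026 on the same strand. Its level was 2.70 and 7.20 FPKM in HepG2 WT and 6.59 and 3.97 FPKM in HepG2 SR. In Huh7 it was 1.87 and 0.832 FPKM in WT and 1.33 and 8.03 FPKM in SR. SR and WT overlapped in both lines, and the value of 8.03 FPKM, in Huh7 SR replicate 2, was the highest of the 8. SR exceeded WT by 0.16 ± 0.73 (SE, log2 scale) in HepG2 (limma, adjusted p = 0.995) and by 0.999 ± 0.73 in Huh7 (adjusted p = 0.99996). The Huh7 difference was 0.02 without Huh7 SR replicate 2 and passed the thresholds, at 1.98, without Huh7 SR replicate 1.

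CYP3A7, the CYP3A form of fetal liver, was second to CYP3A5 in all 8 libraries. It lies at chr7:99684957-99735196, between both neighbours and on their strand. Its level was 0.776 and 1.196 FPKM in HepG2 WT and 1.16 and 1.94 FPKM in HepG2 SR. In Huh7 it was 0.261 and 0.212 FPKM in WT and 0.702 and 1.18 FPKM in SR. SR and WT overlapped in HepG2, while in Huh7 both SR libraries were above both WT libraries, as in 9.06% of the genes tested. SR exceeded WT by 0.35 ± 0.37 (SE, log2 scale) in HepG2 (limma, adjusted p = 0.956) and by 0.64 ± 0.37 in Huh7 (adjusted p = 0.99996). Over both lines the mean SR effect was 0.49 ± 0.26 (limma, adjusted p = 0.998), and it stayed between 0.38 and 0.61 with each library left out in turn. Only 24.7% of the 50-base words of the CYP3A7 transcript occur in no other annotated gene, because 75.3% are shared with the read-through gene CYP3A7-CYP3A51P, so the split of fragments between both is uncertain. CYP3A7-CYP3A51P was at 0.0813 and 0.267 FPKM in HepG2 SR and listed at 0 in the other 6 libraries. For CYP3A4 and CYP3A5 the unique shares were 87.9% and 95.1%.

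Summed over CYP3A4, CYP3A5, CYP3A7 and CYP3A43, the locus held 1.04 to 10.1 FPKM, with the lowest sum in Huh7 WT replicate 2 and the highest in Huh7 SR replicate 2. CYP3A5 made up 64.1% to 87.7% of that sum and CYP3A4 at most 3.31%. The order CYP3A5, CYP3A7, CYP3A4 of the 3 members held in each of the 8 libraries, those standing apart included.

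**Figure D2:**
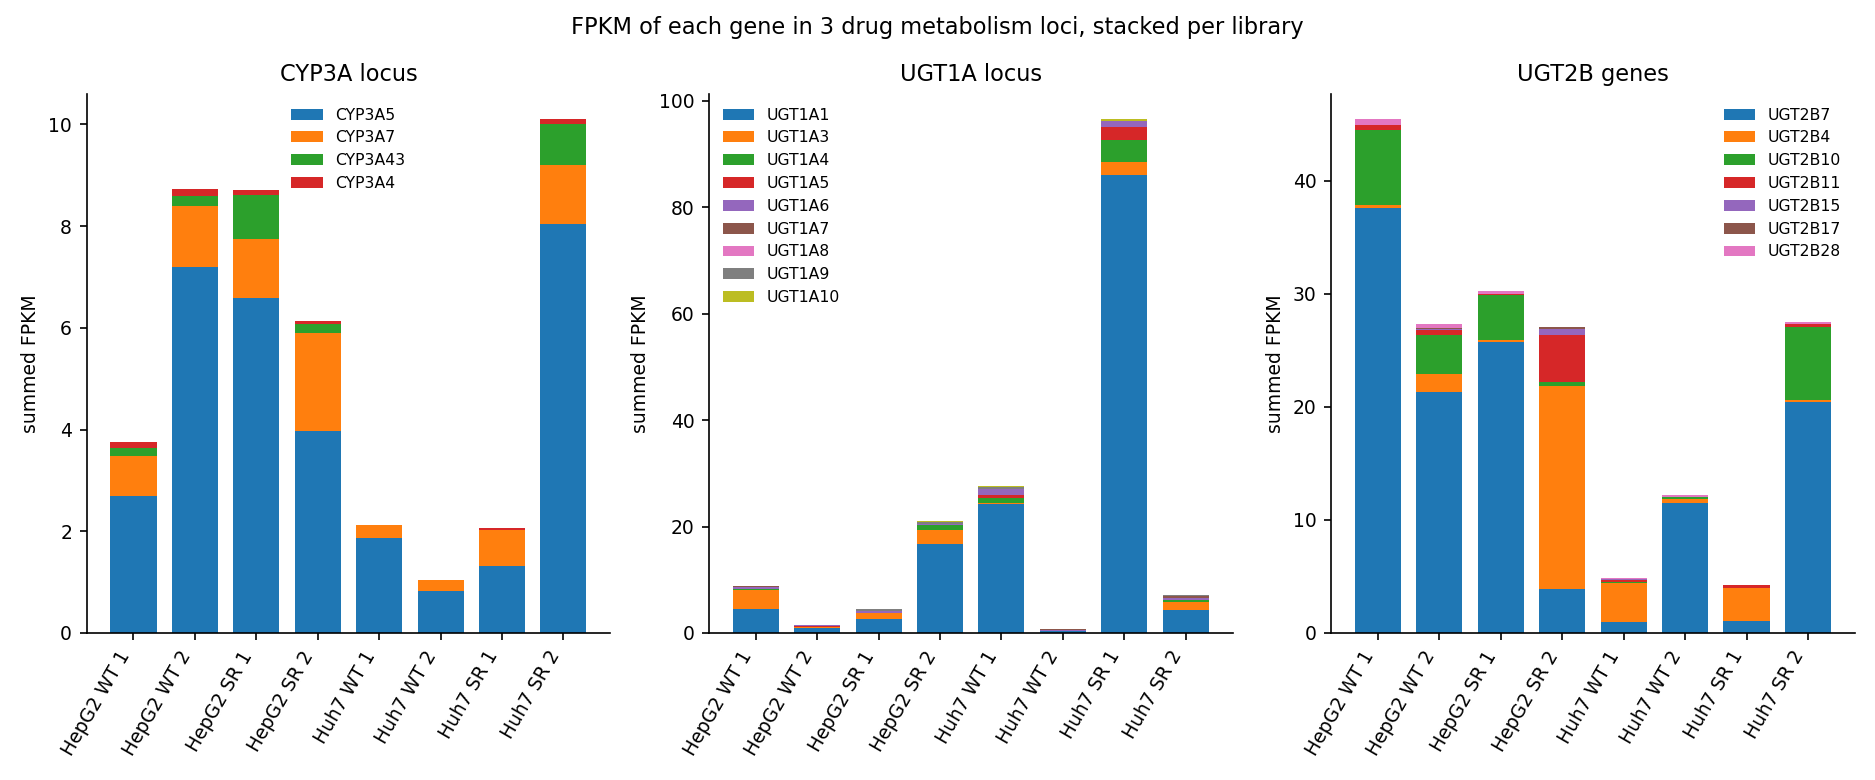
FPKM of each gene of the CYP3A locus (4 genes), the UGT1A locus (9 genes) and the UGT2B genes (7 genes), stacked per library, with summed FPKM on the vertical axis. CYP3A5 and UGT1A1 form the largest block of their locus in all 8 libraries, and UGT2B4 takes the place of UGT2B7 as the largest block in the 3 libraries that stand apart.

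CYP2B6, which oxidizes drugs such as bupropion and efavirenz and is a target of NR1I2 and of the related receptor NR1I3, was near 0 in most libraries. It lies at chr19:40991250-41018398 on the plus strand, and 9.89% of its 50-base words are shared with the pseudogene CYP2B7P. Its level was 0.0323 and 0.0540 FPKM in HepG2 WT and 0.0995 and 5.79 FPKM in HepG2 SR. In Huh7 it was 0.647 and 0.0233 FPKM in WT and 0.319 and 0.0453 FPKM in SR. Both HepG2 SR libraries were above both WT libraries, as in 18.1% of the genes tested, a set that does not include CYP2B6. A single library, HepG2 SR replicate 2, held a value over 1 FPKM, and without it HepG2 SR was at 0.0995 FPKM. The 3 highest values were those of the 3 libraries that stand apart. At the lower filter the HepG2 difference was 1.39 ± 0.75 (SE, log2 scale; limma, adjusted p = 0.971), and in Huh7 it was -0.14 ± 0.75 (adjusted p = 1).

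CYP2E1, the ethanol- and acetaminophen-oxidizing P450, exceeded 1 FPKM in 1 library. It lies at chr10:133520406-133561220 on the plus strand and is overlapped on the opposite strand by exons of SYCE1, and since no source used here says that strand was used in counting, fragments of both could not be told apart there. Its level was 0.468 and 0.289 FPKM in HepG2 WT and 0.740 and 0.238 FPKM in HepG2 SR. In Huh7 it was 0.333 and 0.0651 FPKM in WT and 0.0603 and 1.22 FPKM in SR. In both lines the SR pair held both the highest and the lowest value, so the groups overlapped. At the lower filter SR exceeded WT by 0.09 ± 0.37 (SE, log2 scale; limma, adjusted p = 1) in HepG2 and by 0.36 ± 0.37 in Huh7 (adjusted p = 1).

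CYP1A1, which oxidizes polycyclic aromatic hydrocarbons and is induced through the aryl hydrocarbon receptor, had the third-ranked mean level of the 9 genes. It lies at chr15:74719542-74725610 on the minus strand, and all of its 50-base words are unique. The level was 5.91 and 3.04 FPKM in HepG2 WT and 2.02 and 10.1 FPKM in HepG2 SR. In Huh7 the level was 7.07 and 0.348 FPKM in WT and 8.98 and 4.90 FPKM in SR. The groups overlapped in both lines, and the 3 highest values, 10.1, 8.98 and 7.07 FPKM, were those of the 3 libraries that stand apart. SR exceeded WT by 0.13 ± 0.97 (SE, log2 scale) in HepG2 (limma, adjusted p = 1) and by 1.22 ± 0.97 in Huh7 (adjusted p = 0.99996). In Huh7 the difference was 2.51 without WT replicate 1, which passed the thresholds, and -0.07 without WT replicate 2. AHR, the receptor that drives CYP1A1, was at 12.4 to 56.7 FPKM and its partner ARNT at 4.99 to 18.9 FPKM, and neither was called in either line.

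UGT1A9, the enzyme that glucuronidates sorafenib, was below 1 FPKM in every library and listed at 0 in 3 of them. Its gene spans chr2:233671853-233773300 on the plus strand and overlaps the other 8 UGT1A genes. The level was 0.0576 and 0 FPKM in HepG2 WT and 0.2996 and 0.381 FPKM in HepG2 SR. In Huh7 the level was 0.411 and 0 FPKM in WT and 0 and 0.194 FPKM in SR. Both HepG2 SR libraries were above both WT libraries, whereas in Huh7 the groups overlapped. The HepG2 order held in 18.1% of the genes tested, a set without UGT1A9 and other genes at so low a level. At the lower filter the HepG2 difference was 0.38 ± 0.18 (SE, log2 scale; limma, adjusted p = 0.971), and in Huh7 it was -0.12 ± 0.18 (adjusted p = 1). The difference between these effects was -0.50 ± 0.26 (limma, adjusted p = 0.99987). Only 32.4% of the 50-base words of UGT1A9 are unique to it, so its value depends on how fragments of the shared exons were assigned among the UGT1A genes, which the sources used here do not state.

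Of the summed UGT1A level, UGT1A9 took at most 6.65%, in HepG2 SR replicate 1. UGT1A1 led in all 8 libraries, with 36.5% to 89.2% of the sum. In HepG2, UGT1A1 was 4.50 and 0.848 FPKM in WT and 2.67 and 16.7 FPKM in SR. In Huh7 the level was 24.2 and 0.284 FPKM in WT and 86.2 and 4.23 FPKM in SR. Its 3 highest values were again those of the libraries that stand apart, SR and WT overlapped in both lines, and it was not called in either.

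UGT2B7, which glucuronidates morphine, zidovudine and many carboxylic acids, was the most abundant of the 9 genes in 5 libraries, and CYP1A1 exceeded it in the 3 that stand apart. It lies at chr4:69051363-69112987 on the plus strand, and 93.3% of its 50-base words are unique. The level was 37.6 and 21.3 FPKM in HepG2 WT and 25.8 and 3.89 FPKM in HepG2 SR. In Huh7 the level was 0.959 and 11.5 FPKM in WT and 1.07 and 20.4 FPKM in SR. SR and WT overlapped in both lines, and the 3 lowest values, 0.959, 1.07 and 3.89 FPKM, were those of the libraries that stand apart. The change was -1.36 ± 1.39 (SE, log2 scale) in HepG2 (limma, adjusted p = 0.956) and 0.43 ± 1.39 in Huh7 (adjusted p = 0.99996). The HepG2 value was -0.13 without SR replicate 2, and the Huh7 value ran from -1.26 without SR replicate 2 to 2.11 without SR replicate 1. Between Huh7 libraries of the same number, SR was above WT in both, at 1.07 against 0.959 and 20.4 against 11.5 FPKM. The same held for CYP3A7 and CYP1A1, whereas CYP3A5 went both ways. The labels do not pair these libraries, and the share of all genes with such an order was not computed. Over both lines the SR effect was -0.47 ± 0.98 with all libraries (limma, adjusted p = 0.998) and 0.26 ± 0.37 without the 3 that stand apart.

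Within the UGT2B genes the leading transcript changed between libraries. UGT2B7 made up 74.1% to 94.5% of the summed UGT2B level in 5 libraries and 14.4%, 19.9% and 25.2% in HepG2 SR replicate 2 and in replicate 1 of Huh7 WT and Huh7 SR. In those 3 libraries UGT2B4, which glucuronidates bile acids, led with 17.9, 3.50 and 2.89 FPKM, against 0.170 to 1.57 FPKM in the other 5. The exchange ran across SR and WT labels.

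NR1I2, the receptor, lies at chr3:119780484-119818485 on the plus strand, and 93.7% of its 50-base words are unique. The level was 12.4 and 13.7 FPKM in HepG2 WT and 8.03 and 0.478 FPKM in HepG2 SR. In Huh7 the level was 0.157 and 10.8 FPKM in WT and 0.0439 and 8.08 FPKM in SR. Both HepG2 SR libraries were below both WT libraries, as in 20.1% of the genes tested, and the Huh7 groups overlapped. The change was -1.94 ± 1.46 (SE, log2 scale) in HepG2 (limma, adjusted p = 0.956) and -0.26 ± 1.46 in Huh7 (adjusted p = 0.99996). Without SR replicate 2 the HepG2 change was -0.64. In Huh7 the change was -1.94 without WT replicate 1 and 1.41 without WT replicate 2, and -1.82 without SR replicate 2 and 1.30 without SR replicate 1, so the direction turned with the library left out. Between Huh7 libraries of the same number, which the labels do not pair, SR was below WT in both. The values were 0.0439 against 0.157 and 8.08 against 10.8 FPKM, and the share of all genes with such an order was not computed. With the 3 libraries that stand apart left out, NR1I2 was at 8.03 to 13.7 FPKM in every library, and the SR effect over both lines was -0.53 ± 0.24 (SE). That fit leaves 1 library in each group except HepG2 WT and did not call NR1I2. With each single library left out in turn, the effect over both lines ran from -1.94 to -0.26.

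**Figure D3:**
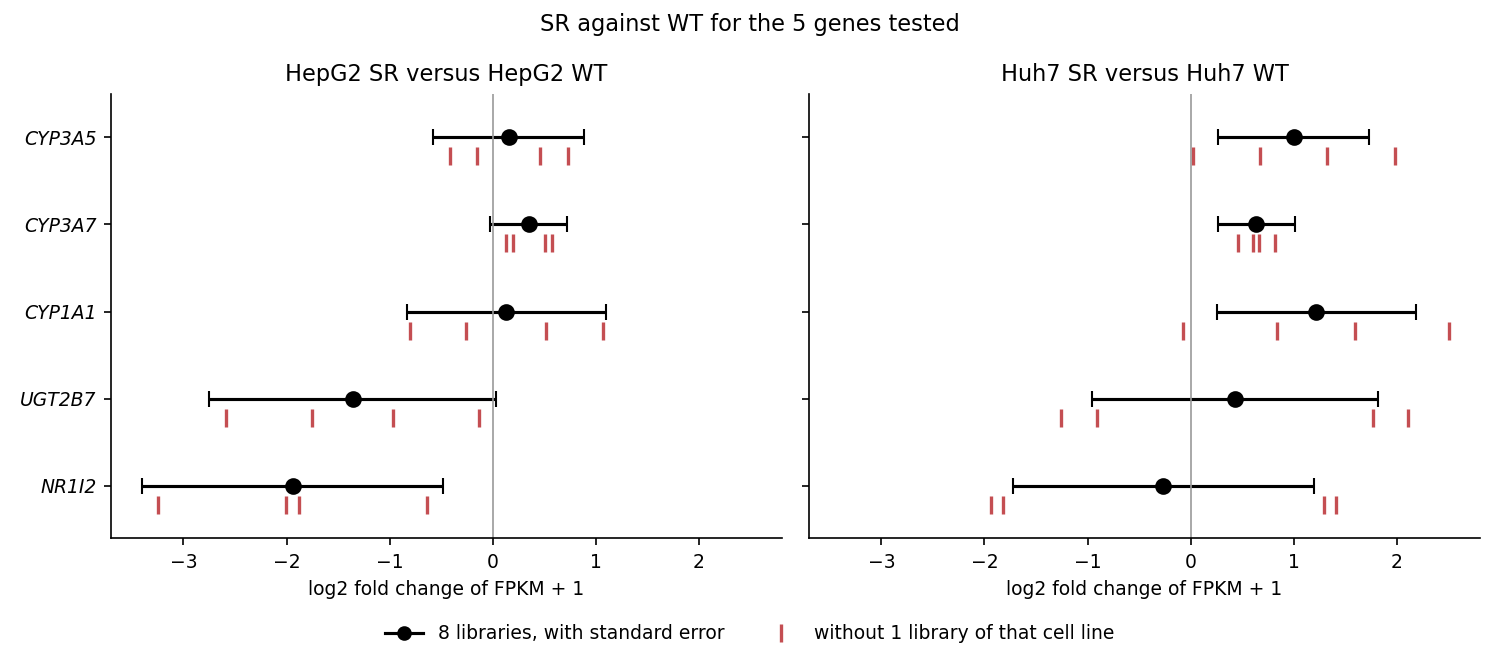
Difference of SR from WT on the log2(FPKM + 1) scale (horizontal axis) for the 5 genes tested, in HepG2 (left) and Huh7 (right); black points are the fit of all 8 libraries with its standard error, and red ticks the values with 1 library of that cell line left out. The ticks of NR1I2 and UGT2B7 in Huh7 fall on both sides of 0, whereas those of CYP3A7 stay above 0 in both lines.

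The level of NR1I2 and those of its targets ranked the libraries alike only in part. HepG2 SR replicate 2, where NR1I2 was 0.478 FPKM, is one of the 3 libraries that stand apart. There CYP2B6 was at its highest, 5.79 FPKM, and CYP3A7 at its highest, 1.94 FPKM. Both HepG2 WT libraries were highest in NR1I2 and in CYP3A4. The 3 libraries that stand apart were lowest in NR1I2 and at 0 to 0.0593 FPKM in CYP3A4. However, CYP3A4 was also listed at 0 in Huh7 WT replicate 2, where NR1I2 was 10.8 FPKM. CYP3A4 was at its highest, 0.136 FPKM, in HepG2 WT replicate 2, where NR1I2 was also at its highest. HepG2 WT replicate 2 is also the library that listed the most genes above 0 FPKM. These are levels in single libraries, given side by side with no test.

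The order of the 4 groups by mean level differed between the genes. Here and in the next paragraph, groups are said to overlap if the ranges of their 2 values do, whatever the SD printed. The share of all genes with such separation was computed only for SR against WT within a line, as given above. For CYP3A5, HepG2 SR (5.28 ± 1.86 FPKM, SD, n = 2), HepG2 WT (4.95 ± 3.18) and Huh7 SR (4.68 ± 4.74) overlapped, and Huh7 WT (1.35 ± 0.734) was lowest and overlapped only Huh7 SR. For CYP3A7 the order was HepG2 SR (1.55 ± 0.555 FPKM), HepG2 WT (0.986 ± 0.297), Huh7 SR (0.940 ± 0.336) and Huh7 WT (0.237 ± 0.0348), and the last alone was separate from its neighbour. For CYP1A1 the order was Huh7 SR (6.94 ± 2.88 FPKM), HepG2 SR (6.06 ± 5.70), HepG2 WT (4.48 ± 2.03) and Huh7 WT (3.71 ± 4.76), each overlapping the next.

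For CYP3A4, HepG2 WT (0.130 ± 0.00792 FPKM, SD, n = 2) was separate from HepG2 SR (0.0774 ± 0.0257), which overlapped Huh7 SR (0.0659 ± 0.0366), and Huh7 WT was listed at 0. For the 2 genes with the highest means, HepG2 WT stood at the top. UGT2B7 was 29.5 ± 11.5 FPKM (SD, n = 2) in HepG2 WT and 14.8 ± 15.5 in the SR cells of that line, 10.7 ± 13.7 in Huh7 SR and 6.24 ± 7.47 in Huh7 WT, with each neighbouring pair overlapping. NR1I2 was 13.0 ± 0.901 FPKM in HepG2 WT, where both values lay above all values of the other 3 groups. Those groups were 5.49 ± 7.54 in Huh7 WT, 4.25 ± 5.34 in HepG2 SR and 4.06 ± 5.69 in Huh7 SR, and their ranges overlapped.

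Between the cell lines, each of the 5 genes tested was lower in Huh7 than in HepG2 on average over WT and SR, with 0 called against 4.9% of all genes, and 0 with an unadjusted p under 0.05 in limma. The difference was -1.67 ± 0.98 (SE, log2 scale) for UGT2B7 (limma, adjusted p = 0.813), -1.09 ± 1.03 for NR1I2 (adjusted p = 0.832) and -0.84 ± 0.52 for CYP3A5 (adjusted p = 0.813). It was -0.53 ± 0.26 for CYP3A7 (limma, adjusted p = 0.813) and -0.14 ± 0.68 for CYP1A1 (adjusted p = 0.968). Without Huh7 SR replicate 2, UGT2B7 (-2.52) and CYP3A5 (-1.33) passed the thresholds, and without Huh7 SR replicate 1 they were -0.83 and -0.35. NR1I2 ran from -1.92 without Huh7 WT replicate 2 to -0.25 without Huh7 WT replicate 1. The SR effects of the lines differed by 0.29 (CYP3A7) to 1.79 (UGT2B7), Huh7 minus HepG2, with 0 of the 5 called against 0.606% of all genes and 0 with an unadjusted p under 0.05 in limma. With both lines combined, 0 members were called against 3.93% of all genes, and 0 had an unadjusted p under 0.05 in limma.

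Likeness of pattern was measured across the 8 libraries as the mean absolute difference of log2(FPKM + 1) after each gene was centred on its mean, smaller values being more alike. The nearest genes were TSPAN6 (0.110) and RAVER1 (0.112) for CYP3A7, VWA1 (0.222) and ERICH2-DT (0.225) for CYP3A5, and CREB3L3 (0.244) and RAB3D (0.292) for CYP1A1. For UGT2B7 they were FBXO2 (0.127) and ANK1 (0.223), and for NR1I2 MYOM3 (0.173) and SOAT2 (0.174). No member was among the 2 nearest genes of another.

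Among the other P450 genes of families 1 to 3, 5 of 17 were tested and 0 were called in either line, and 10 were below 1 FPKM in all 8 libraries. CYP1A2, CYP2C19 and CYP2A6, drug-oxidizing enzymes of adult liver, reached at most 0.0405, 0.103 and 0.115 FPKM. The highest mean of this list was that of CYP2S1, an extrahepatic P450, at 2.92 to 56.2 FPKM, with 56.2 and 32.8 FPKM in replicate 1 of Huh7 WT and SR. It was followed by CYP2W1, known from fetal colon and tumours, at 0.0455 to 28.7 FPKM and above CYP2S1 in 3 libraries, and CYP2R1, a vitamin D 25-hydroxylase, at 2.59 to 9.12 FPKM. The median SR difference of the list was 0.42 in HepG2 and -0.25 in Huh7 (log2 scale), beside -0.03 and -0.05 over all genes tested.

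Of the 34 P450 genes of family 4 and above, which act mainly on sterols, fatty acids and vitamins, 14 were tested and 0 were called in either line. Their median difference was -0.16 in both. CYP24A1, the vitamin D 24-hydroxylase, was listed at 0 in HepG2 SR replicate 2 and reached 226 FPKM in Huh7 WT replicate 1. CYP27A1, the sterol 27-hydroxylase, was at 0.0598 FPKM in Huh7 WT replicate 1, listed at 0 in Huh7 SR replicate 1, and at 25.2 to 86.4 FPKM in the other 6 libraries. CYP51A1, the lanosterol demethylase of cholesterol synthesis, was at 21.5 to 74.3 FPKM.

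Of the 20 other UGT genes, 7 were tested and 0 were called in either line. Their median difference was 0.11 in HepG2 and 0.88 in Huh7 (log2 scale), beside -0.03 and -0.05 over all genes tested. Positive differences were 4 of 7 in HepG2 and 6 of 7 in Huh7, and the share over all genes was not computed. UGT1A1, UGT1A3, UGT1A4 and UGT1A6 are among the 7 and share exons 2 to 5, so they are not separate observations. UGT2A3 was at 3.70, 0.182 and 0.255 FPKM in the 3 libraries that stand apart, in the order HepG2 SR, Huh7 WT, Huh7 SR, and at 8.14 to 16.7 FPKM in the other 5. UGT2B10, which glucuronidates nicotine, was at 0.0172 to 6.70 FPKM.

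The partner genes of P450 and UGT enzymes all passed the filter on low values. Of these 11, 0 were called in either line, with a median difference of 0.24 in HepG2 and 0.09 in Huh7 (log2 scale). POR, the electron donor, was at 45.0 to 170 FPKM, and UGDH, which makes UDP-glucuronic acid, at 46.2 to 174 FPKM. CYB5R3, the cytochrome b5 reductase, at 32.3 to 148 FPKM, was the only one called between the lines, at -1.13 ± 0.39 (limma, adjusted p = 0.813), a call lost in 4 of the 8 fits with a library left out (to -0.76 without Huh7 SR replicate 1) and without the 3 libraries that stand apart (-0.91).

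Among 19 receptors and regulators of these genes, 17 were tested, 1 was called in HepG2 and 3 in Huh7, beside 2.14% and 1.87% of all genes tested, and the median difference was 0.12 in HepG2 and 0.41 in Huh7 (log2 scale). CEBPA, a hepatocyte transcription factor, rose in both lines at the unadjusted threshold. The level was 17.9 and 27.2 FPKM in HepG2 WT and 41.5 and 78.2 FPKM in HepG2 SR, a difference of 1.33 ± 0.44 (SE; limma, adjusted p = 0.956). Huh7 cells were at 12.001 and 14.5 FPKM in WT and 42.9 and 27.4 FPKM in SR, a difference of 1.32 ± 0.44 (limma, adjusted p = 0.99996). All 4 SR libraries were above all 4 WT libraries, as in 1.52% of the genes tested. The HepG2 call was lost without SR replicate 2 (0.88) or WT replicate 1 and the Huh7 call without SR replicate 1 (1.003) or WT replicate 1, while the effect over both lines, 1.32 ± 0.31 (adjusted p = 0.998), was called with each library left out in turn.

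In Huh7, HNF4A, a nuclear receptor that maintains hepatocyte expression, also rose at that threshold, and CEBPB, an acute-phase factor of the same family as CEBPA, fell. HNF4A was 32.2 and 22.2 FPKM in WT and 55.7 and 50.2 FPKM in SR (0.96 ± 0.40; limma, adjusted p = 0.99996), and 6 of the 8 fits with a library left out did not call it. CEBPB was 102 and 124 FPKM in WT and 49.3 and 34.8 FPKM in SR (-1.42 ± 0.41; limma, adjusted p = 0.99996), a call lost only without SR replicate 2 (-1.17). NR1H4, the bile acid receptor, was called over both lines, at 1.66 ± 0.67 (limma, adjusted p = 0.998), and reached 85.9 FPKM in HepG2 SR replicate 2; 4 of the 8 fits with a library left out did not call it, and without HepG2 SR replicate 2 it was 1.15. That call was also lost without the 3 libraries that stand apart (1.26) and with no filter on low values. RXRA, the partner of NR1I2, was at 4.17 to 17.0 FPKM and NR1I3 at 0.180 to 1.90 FPKM, and neither was called in SR against WT in either line. Between the lines RXRA was called lower in Huh7, at -1.08 ± 0.32 (limma, adjusted p = 0.813). That difference ran from -1.32 to -0.83 with each library left out in turn. Of the 17 genes tested, 2 were called higher and 3 lower in Huh7 than in HepG2, beside 4.9% of all genes tested.

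Of 41 other phase I and II drug enzymes, 33 were tested, 0 were called in HepG2 and 1 in Huh7, beside 2.14% and 1.87% of all genes tested, so a single call is near the background. The called gene was MGST2, a microsomal glutathione transferase, at 29.6 and 21.5 FPKM in Huh7 WT and 52.0 and 100 FPKM in Huh7 SR (1.48 ± 0.41; limma, adjusted p = 0.99996), and the call was lost without SR replicate 2 (1.02). In HepG2 it was 52.2 and 60.3 FPKM in WT and 81.2 and 106 FPKM in SR. SR libraries were thus above WT libraries in each line, as in 18.1% of the genes tested in HepG2 and 9.06% in Huh7. Over both lines the difference in MGST2 was 1.10 ± 0.29 (limma, adjusted p = 0.998). Between the lines, 0 of the 33 were called higher and 4 lower in Huh7 than in HepG2, beside 4.9% of all genes tested. The median SR difference of the list was 0.20 in HepG2 and 0.42 in Huh7. ALDH1A1, a retinaldehyde dehydrogenase, had its highest mean, at 84.9 to 933 FPKM, and MGST1 was at 135 to 289 FPKM and above ALDH1A1 in Huh7 WT replicate 2. GSTP1, the placental-type glutathione transferase, was at 775, 938 and 893 FPKM in the 3 libraries that stand apart, in the order HepG2 SR, Huh7 WT, Huh7 SR, and at 0.0350 to 0.148 FPKM in the other 5 libraries.

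**Figure D4:**
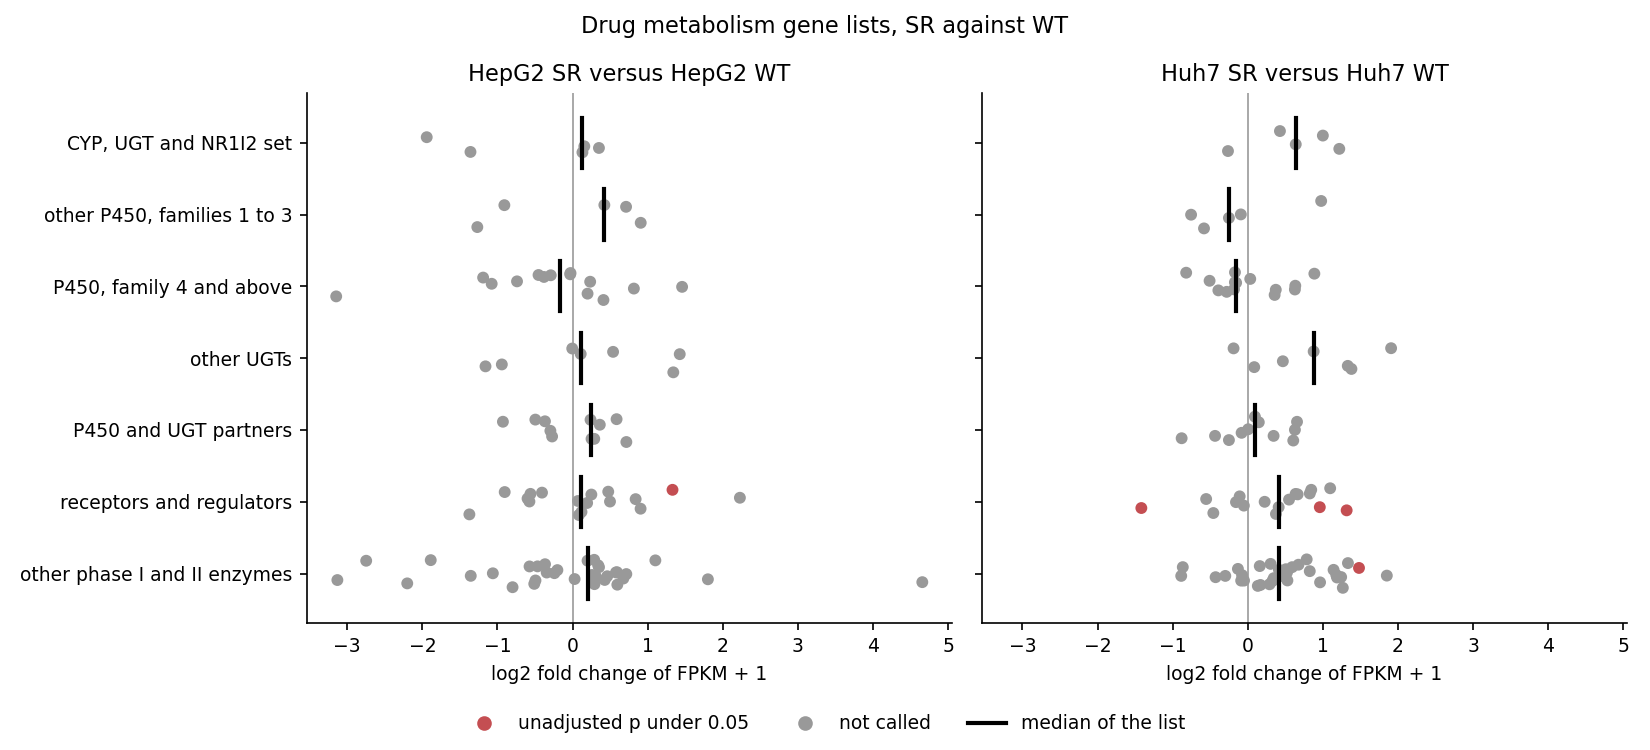
Difference of SR from WT on the log2(FPKM + 1) scale (horizontal axis) for every tested gene of the 9 genes described and of 6 lists of related genes (vertical axis), in HepG2 (left) and Huh7 (right); red points passed the unadjusted threshold, and black bars are medians. The red points are CEBPA in HepG2, and CEBPA, HNF4A, CEBPB and MGST2 in Huh7.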

How the data were processed

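Expression was taken from the FPKM values that the authors deposited for each of 8 libraries, 1 value per Ensembl gene. The authors enriched polyadenylated RNA on oligo(dT) beads and normalized to FPKM, and the submitters' processing notes name fastp 0.20.0 and the build GRCh38. The aligner, the quantification tool and the annotation are not given in the sources used here. Samples were grouped by their labels alone. Of 63241 identifiers, 62666 (99.1%) were paired with a symbol through a table of gene names, and 58228 were found in GENCODE release 29, from which positions and 50-base words were taken.

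FPKM values are not counts, so log2(FPKM + 1) was tested with limma 3.58.1 in R 4.3.3 (eBayes with trend) in 1 model of the 4 group means, over genes that reached an FPKM of 1 in 2 or more libraries, which left 4 residual degrees of freedom. Fold changes on this scale understate the change of low genes. Calls used the thresholds of the study's methods, an unadjusted p under 0.05 and a log2 fold change from 0.5 upwards or below -0.5, beside Benjamini-Hochberg adjustment over all genes tested. Contrasts were SR with WT in each line, their mean and their difference, and Huh7 with HepG2.

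Genes named were the 9 members, the genes of each related list called in SR against WT, and the 3 most abundant of each list, while AHR, ARNT, RXRA, NR1I3, UGT2B10, CYP1A2, CYP2A6, CYP2C19 and the single cell type markers were named after their values were seen. The members and lists were chosen with earlier results of these data known. The alternatives were another pseudocount (0.1), a filter at 0.1 or none, TPM, quantile normalization, each line alone, a replicate block, eBayes without trend, the adjusted p, leaving out each library, and leaving out the 3 libraries that stand apart. Same-numbered libraries deviated together in Huh7 WT and Huh7 SR (r = 0.80) and hardly in HepG2 WT and HepG2 SR (r = 0.12). HepG2 SR deviated oppositely to Huh7 WT (r = -0.49) and Huh7 SR (r = -0.56). The numbers therefore do not pair the libraries over all groups, and the main model left them out. The fit was tested on simulated data.

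FPKM carry no read totals. Steps between low values, searched only from 30 to 60 M fragments, placed the depth at 40.1 to 56.8 M per library, but just 8.03% to 11.9% of low values lay within 0.02 of a whole fragment, against 4.0% by chance, so read counts were not recovered and no counting interval is given. At that depth 1 fragment would be worth 0.00818 to 0.0116 FPKM in CYP3A4. Python 3.11.15 with pandas 2.3.3 and matplotlib 3.10.9 made the tables and figures.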

Additional observations from a re-analysis of the deposited data

Results flagged for a closer look

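In 18 sets of 4 libraries, the WT or the SR libraries of 1 gene over both cell lines, the highest or lowest value was compared with its nearest neighbour. Gaps and ranges were taken on the log2(FPKM + 1) scale, not on the FPKM printed here. By Dixon's criterion, the 95% critical value for 4 samples of the gap over the whole range, 4 stood apart. Chance alone sets apart about 1 in 20 sets drawn from a single population. Each set here mixes 2 cell lines, so that rate need not hold. Huh7 WT replicate 1 was the highest of the WT libraries in CYP2B6 (0.647 FPKM, gap 0.938 of the range) and in UGT1A9 (0.411 FPKM, gap 0.837), and the lowest in NR1I2 (0.157 FPKM, gap 0.914). HepG2 SR replicate 2 was the highest of the SR libraries in CYP2B6 (5.79 FPKM, gap 0.876). Both are among the 3 libraries whose whole profile stood apart from the other 5, and the part of that in these values was not tested.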

How the results depend on the processing

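Of 395 alternative values for 25 changes of members, 370 kept their direction and their side of the thresholds, 6 passed the thresholds and 19 took the other sign. Many could not take the other sign. A change within 1 line stays the same when a library of the other line is left out. Another filter, a replicate block, eBayes without trend or a line fitted alone also leave the estimate as it was. The 370 therefore do not measure stability. UGT2B7 over both lines was 0.26 without the 3 libraries that stand apart, and with TPM CYP3A7 was called between the lines (-0.82), so that 1 member was called there. With 1 library left out, the change in HepG2 ran from -0.42 to 0.73 for CYP3A5 and from -0.81 to 1.07 for CYP1A1. In Huh7 it ran from -0.073 to 2.51 for CYP1A1, from -1.94 to 1.41 for NR1I2 and from -1.26 to 2.11 for UGT2B7. UGT2B7 over both lines ran from -1.31 to 0.38, CYP1A1 between the lines from -0.78 to 0.51, and the difference of the SR effects from -0.14 to 1.82 for CYP3A5 and from -0.20 to 2.38 for CYP1A1. Members called then numbered 0 to 1 in Huh7 (CYP3A5 or CYP1A1), 0 to 1 over both lines (CYP3A5, 1.07 without Huh7 SR replicate 1), 0 to 2 between the lines, and 0 in HepG2 and for the difference of the effects.

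Counts of all genes called moved more. Of genes tested, 325 were called in HepG2 (504 at a filter of 0.1, and 57 to 1749 without 1 library), 283 in Huh7 (124 with the line fitted alone, 154 to 818) and 596 over both lines (972 without the 3 libraries, 193 to 1277). Between the lines 744 were called (1126 without the 3 libraries, 236 to 1735), and 92 for the difference of the effects (254 at a filter of 0.1, 168 with no filter, 152 with TPM, 24 to 945). After adjustment, 0 genes remained in each comparison. A replicate block, a single term for the replicate number over all 4 groups, gave 328, 234, 516, 780 and 91 calls in these comparisons and called no member. By their labels the libraries share only a number. The cause of these shifts was not tested. With no filter, CYP3A4 had an unadjusted p under 0.05 in limma between the lines (-0.10) and for the difference of the effects (0.16). Both were short of the fold threshold, which a gene of at most 0.136 FPKM cannot reach on the log2(FPKM + 1) scale.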
